A study of Homo sapiens with 9 samples.

Results

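The 10 genes described here encode subunits of the AP-1 transcription factor and proteins of other genes that respond first when a cell is stimulated. They are the FOS family (FOS, FOSB, FOSL1 and FOSL2), the JUN family (JUN, JUNB and JUND), and ATF3, EGR1 and IER3. They were found by gene symbol among the 27111 genes of the expression tables, and all 10 passed the filter on low counts, with 17108 genes tested in all. RNA-seq had been performed on 9 libraries from multicellular tumor spheroids (MTSs) of PC-3, an established human cell line from a bone metastasis of prostate cancer. In the Empty group the cells carried an empty lentiviral vector, in the NF-YAl group a vector for the long splice isoform of NF-YA, and in the NF-YAs group a vector for the short isoform, with 3 libraries each. Both transgenes were of murine sequence, the human NFYA gene was left in place in all 3 lines, and each library held a pool of MTSs of a transduced line. The comparisons ask how the level of these genes in PC-3 MTSs differed with either isoform from the Empty control, and between the isoforms.

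AP-1 is a dimer of basic leucine zipper (bZIP) proteins. FOS proteins must pair with a JUN protein to bind DNA, whereas JUN proteins can also pair among themselves, and the classical site is TGANTCA. FOS, FOSB, EGR1, ATF3 and JUNB are immediate early genes, transcribed within minutes of serum, growth factor or stress signals through ERK, JNK and p38 kinases, and their RNA is short-lived. FOSL1 and FOSL2 respond later and last longer, and FOSL1 is often abundant in invasive carcinoma cells. NF-Y, of which NF-YA is the subunit that reads the sequence, binds the CCAAT box.

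Promoter windows were found in the RefSeq promoter table (GRCh38.p14) for 8 of the 10 genes, that is for all but FOSL1 and IER3, and each 300-base window matched 1 place in GRCh37, the build used by the authors. The windows were searched on both strands, over 250 bases before the start site and 50 after it. CCAAT was present in a window of JUN, JUNB, JUND and ATF3, 4 of 8 genes, against 34.6% of the 35116 promoters of the table, counted by window. Of the 2 ATF3 windows only the first held it. These 4 are printed because they hold the box that the overexpressed factor reads. Each run is the 250 bases before the start site, 5′ to 3′ on the strand of the gene, with CCAAT or its complement ATTGG in capitals.
JUN, chr1:59249720-59249969 of GRCh37, minus strand: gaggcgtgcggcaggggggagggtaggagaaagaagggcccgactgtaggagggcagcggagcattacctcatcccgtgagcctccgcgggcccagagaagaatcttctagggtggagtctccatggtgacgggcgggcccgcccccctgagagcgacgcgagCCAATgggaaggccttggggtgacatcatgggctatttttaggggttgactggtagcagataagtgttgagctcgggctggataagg
JUNB, chr19:12902050-12902299, plus strand: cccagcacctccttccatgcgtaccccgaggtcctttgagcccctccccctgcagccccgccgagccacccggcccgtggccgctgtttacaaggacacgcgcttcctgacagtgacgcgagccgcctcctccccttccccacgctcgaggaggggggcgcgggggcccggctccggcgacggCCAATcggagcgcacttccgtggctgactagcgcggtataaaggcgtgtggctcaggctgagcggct
JUND, chr19:18392433-18392682, minus strand: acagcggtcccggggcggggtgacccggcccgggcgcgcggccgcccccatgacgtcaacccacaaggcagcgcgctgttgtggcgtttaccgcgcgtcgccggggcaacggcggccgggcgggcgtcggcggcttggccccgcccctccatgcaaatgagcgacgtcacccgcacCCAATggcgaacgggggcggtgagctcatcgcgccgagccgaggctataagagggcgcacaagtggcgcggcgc
ATF3, chr1:212738499-212738748, plus strand, the first of its 2 windows: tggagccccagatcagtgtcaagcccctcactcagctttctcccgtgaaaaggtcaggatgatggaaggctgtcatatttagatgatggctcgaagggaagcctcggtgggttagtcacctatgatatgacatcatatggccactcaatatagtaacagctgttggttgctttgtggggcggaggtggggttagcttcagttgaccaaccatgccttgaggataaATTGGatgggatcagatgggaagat
The box began 87 bases before the start site in JUN, 67 in JUNB and 74 in JUND, in the forward orientation. In ATF3 the inverted box began 25 bases before it. Of the other motifs, TGANTCA was found in FOSL2 only (7.7% of all promoters), TGACGTCA, the cAMP response element, in JUND only (1.8%), and the CArG box of serum response factor in EGR1 only (1.3%). GGGCGG, the GC box, was found in FOS, FOSB, FOSL2, JUN, JUND and ATF3 (45%). These are matches of letters, and binding was not measured here.

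The libraries held 18076979 to 27163976 expected counts. NFYA was at 91.8 ± 4.24 CPM in Empty, 341 ± 49.3 with NF-YAl and 261 ± 5.71 with NF-YAs (SD, n = 3). CPM are counts scaled to library size with TMM factors. No library of a transduced line overlapped Empty, which checks the Empty labels. A gene total cannot tell the isoforms apart, so it does not check which line carried which isoform. The total also differed between the lines, without overlap, by 0.39 on the log2 scale (SE 0.11, edgeR adjusted p = 0.0228). The part of this difference in the comparison of the isoforms was not tested. Reads of the murine transgene that match the human transcripts were not separated from the NFYA counts. Of the PC-3 and epithelial markers, KRT8, KRT18 and VIM were at 114 CPM or more in all group means, CTNNA1, deleted in this line, was at 1.85 CPM or less in them, and KLK3 had 0 counts in every library. The summed level of 12 markers of other cell types was 68.8 to 87.4 CPM in Empty, 31.0 to 45.4 in NF-YAl and 38.5 to 47.3 in NF-YAs, mostly from CD68, and HBB had 0 counts throughout. Their part in the results was not tested. NF-YAl D stood apart in that genes with an effective length under 300 bases took 23.8% of its TPM (transcript abundance corrected for length and scaled to a fixed sum), against 46.9 to 60.6% in the other 8 libraries, so that TPM of longer genes were higher there. Levels between libraries are therefore given in CPM, and TPM serve to order genes within a library.

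In NF-YAs MTSs, JUND and ATF3 were called lower than in Empty, and the other 8 members were not called by edgeR. The log2 fold change (log2FC) was below 0 for all 10, with a median of -0.88 against -0.0026 over all tested genes, and it stayed below 0 for each of them under every alternative in which the gene was tested. Genes were called where the adjusted p was below 0.01 and the fold change exceeded 1 on the log2 scale in either direction, as in the methods of the study. The calls were thus 2 of 10 members against 3.90% of all genes called lower. Neither edgeR nor DESeq2 called a member higher, against 5.44% of all genes by edgeR. DESeq2 called EGR1 lower as well. EGR1 is part of the counts given here, but had only 6, 4 and 7 counts in NF-YAs A, B and C. It passed the filter on low counts only through the other groups, and had no value under the filter of 10 counts in every library. FOSL2 passed the same p with a smaller fold, so that 3 of 10 passed at any fold, against 10.5% of all genes. For 8 of the 10, all but FOS and FOSB, every NF-YAs library lay below every Empty library, against 27.1% of all genes. That count was 7 with total count scaling, which moves the median of all genes up by 0.0889, and 5 with TPM, which moves it up by 0.12.

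In NF-YAl MTSs the fold changes of the members had both signs, 3 above 0 and 7 below. None was called, against 3.50% of all genes lower and 4.76% higher, and DESeq2 called none either. FOSL1 and JUND passed an adjusted p of 0.01 at a smaller fold, 2 of 10 members lower against 9.54% of all genes. FOSL1, FOSL2 and JUND lay below Empty in every library, against 21.4% of all genes. The median log2FC was -0.28 for the members and 0.01 for all genes. Without NF-YAl D, 6 members lay wholly below Empty (FOSL1, FOSL2, JUN, JUNB, JUND and IER3). Leaving out a library cannot lower such a count, and the share of all genes in that setting was not computed. On the TPM scale, which moves the median of all genes up by 0.22, no member lay wholly below Empty.

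Between the isoforms, 7 of the 10 genes were higher in NF-YAl than in NF-YAs and FOSL1, JUN and IER3 were lower, with log2FC of -0.33, -0.23 and -0.02. The sign of IER3 changed on the TPM scale, which moves the median of all genes up by 0.10. None of the 10 was called by edgeR, against 1.74% of all genes higher and 2.86% lower. DESeq2 called 1, EGR1, with its few counts in NF-YAs. JUND passed at a smaller fold, 1 of 10 against 4.70% of all genes higher. JUND and EGR1 did not overlap between the lines, 2 of 10 against 18.6% of all genes. Without NF-YAl B or without NF-YAs A, 6 did not, and the share of all genes was not computed for these settings. The median log2FC was 0.55 for the members and 0.02 for all genes. The 2 comparisons with Empty share its 3 libraries, so their values are not independent of each other. In bulk RNA from pooled MTSs, fewer cells with a transcript and less of it per cell cannot be told apart.

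**Figure D1:**
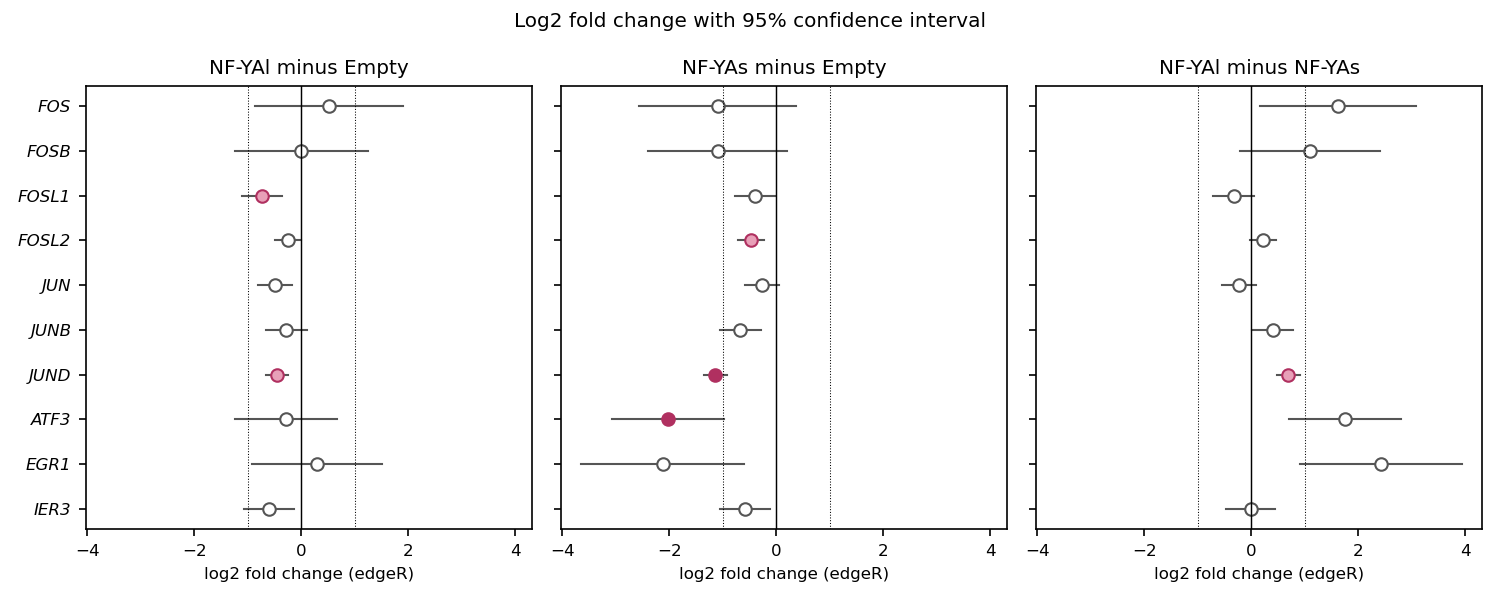
Log2 fold change (x axis, edgeR) of the 10 genes with 95% confidence intervals in the 3 comparisons, with dotted lines at 1 and -1. Dark points are called, pale points pass the adjusted p at a smaller fold and open points do not. In NF-YAs against Empty all points lie left of 0, with JUND at -1.14 and ATF3 at -2.03.

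Of the FOS family, FOS itself, the prototype immediate early partner of JUN, was among the most variable members. Its level was 15.5, 7.11 and 15.2 CPM in Empty A, B and C. It was 30.0, 4.13 and 20.4 CPM in NF-YAl A, B and D. It was 12.5, 2.79 and 2.58 CPM in NF-YAs A, B and C. The groups overlapped, with the A library highest in each line and the B library lowest in Empty and NF-YAl, and the coefficient of variation was 37.7%, 72% and 95.2% in the Empty, NF-YAl and NF-YAs libraries. The log2FC of NF-YAs to Empty was -1.09 (SE 0.67, edgeR adjusted p = 0.229), with a 95% interval from -2.56 to 0.37, and without NF-YAs A it was -2.22 (edgeR adjusted p = 0.0336). In NF-YAl it was 0.52 (SE 0.63, edgeR adjusted p = 0.574), a sign that turned without NF-YAl A, and the direct difference was 1.62 (SE 0.67, edgeR adjusted p = 0.103).

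FOSB, which pairs with JUN proteins like FOS, followed the same libraries. It was at 15.4, 5.60 and 9.68 CPM in Empty, at 17.3, 3.35 and 10.4 CPM with NF-YAl and at 9.32, 3.19 and 2.07 CPM with NF-YAs, in the same order of replicates. Its log2FC was 0.01 (SE 0.57) in NF-YAl and -1.09 (SE 0.60, edgeR adjusted p = 0.178) in NF-YAs. The groups overlapped in both comparisons, and without NF-YAs A the latter value was -1.96 (edgeR adjusted p = 0.0378). FOSB overlaps ERCC1 on the opposite strand.

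FOSL1 encodes FRA-1, and was the most abundant of the family. Its level was 346, 284 and 282 CPM in the Empty libraries, 125, 204 and 220 with NF-YAl and 219, 247 and 226 with NF-YAs. No library of a transduced line reached the lowest Empty library, and NF-YAl A was the lowest of all. The log2FC in NF-YAl was -0.73 (SE 0.17, edgeR adjusted p = 0.00697), a 1.66-fold lower level, and in NF-YAs -0.40 (SE 0.17, edgeR adjusted p = 0.0948). The former passed 0.01 without NF-YAl A or NF-YAl D, and not without any other single library (edgeR adjusted p up to 0.0357 without Empty A) or with the 2 groups fitted alone (0.0224). The difference between the lines was -0.33, with an interval from -0.71 to 0.04. FOSL1 did not vary as FOS did, with a Pearson r of -0.24 between them over the 9 libraries, as a description.

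FOSL2, which encodes FRA-2, was steady within groups. It was at 91.1, 91.7 and 96.1 CPM in Empty, at 88.8, 79.5 and 67.2 with NF-YAl and at 60.2, 70.6 and 71.1 with NF-YAs. Both transduced lines lay below Empty in every library, and they overlapped each other. The log2FC was -0.47 (SE 0.11, edgeR adjusted p = 0.00683) in NF-YAs and -0.25 (SE 0.11, edgeR adjusted p = 0.118) in NF-YAl, where the sign turned on the TPM scale. The value in NF-YAs missed 0.01 in edgeR without any single library of Empty or NF-YAs, or without NF-YAl B (adjusted p up to 0.0402, without NF-YAs A). FOSL2 overlaps FOSL2-AS1 on the opposite strand and an unnamed long noncoding RNA gene on its own strand.

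Of the JUN family, JUND gave the clearest difference of the 10 genes by its p in NF-YAs. JUND is known as the most constantly expressed JUN protein and as a brake on growth in several cell types. It was at 63.7, 62.0 and 57.1 CPM in the Empty libraries. It was at 45.5, 39.8 and 48.6 CPM in NF-YAl A, B and D. It was at 28.2, 28.1 and 26.5 CPM in NF-YAs A, B and C. The 3 groups did not overlap, with Empty highest, NF-YAl between and NF-YAs lowest, and the spread within a group was small. JUND fell 2.21-fold in NF-YAs, with a log2FC of -1.14 (SE 0.10, 95% interval -1.36 to -0.92, edgeR adjusted p = 6.64e-06). In NF-YAl the log2FC was -0.45 (SE 0.10, edgeR adjusted p = 0.0041), and NF-YAl exceeded NF-YAs by 0.69 (SE 0.10, interval 0.48 to 0.91, edgeR adjusted p = 0.000591). The value in NF-YAl missed 0.01 without any single Empty library or without NF-YAl B (edgeR adjusted p up to 0.0221) and with the 2 groups fitted alone (0.0183). The call in NF-YAs held with each library left out in turn, and was not made with limma on TPM (adjusted p = 0.0611 with a pseudocount of 1). JUND lies on chromosome 19 of GRCh37 from 18390504 to 18392432 on the minus strand, a gene of 1929 bases, and overlapped no other annotated gene.

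JUN, the founding member of the family, was at 137, 123 and 170 CPM in Empty, 93.2, 87.1 and 126 with NF-YAl and 121, 120 and 117 with NF-YAs. Every NF-YAs library lay below Empty, narrowly, and NF-YAl D overlapped Empty. The log2FC was -0.49 (SE 0.15, edgeR adjusted p = 0.0227) in NF-YAl and -0.26 (SE 0.15, edgeR adjusted p = 0.183) in NF-YAs. Without NF-YAl D the former was -0.67 (edgeR adjusted p = 0.000934).

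JUNB, an immediate early JUN protein that can oppose JUN, was at 98.8, 89.6 and 121 CPM in Empty, 84.8, 67.6 and 104 with NF-YAl and 79.1, 54.2 and 61.0 with NF-YAs. NF-YAs did not overlap Empty, and NF-YAl overlapped both. The log2FC in NF-YAs was -0.67 (SE 0.18, edgeR adjusted p = 0.0105), just outside the p threshold, and 0.00983 with RLE scaling. In NF-YAl it was -0.27 (SE 0.18, edgeR adjusted p = 0.261), and the sign turned on the TPM scale. JUNB overlaps HOOK2 on the opposite strand.

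ATF3 encodes a bZIP protein induced by many stresses, which as a homodimer represses transcription. Its level was 19.2, 10.3 and 15.2 CPM in Empty A, B and C. It was 11.9, 4.91 and 20.1 CPM in NF-YAl A, B and D. It was 6.25, 2.24 and 2.53 CPM in NF-YAs A, B and C. NF-YAs lay below Empty in every library, and NF-YAl spanned both groups, from below NF-YAs A to above all of Empty. ATF3 fell 4.08-fold in NF-YAs, with a log2FC of -2.03 (SE 0.48, 95% interval -3.08 to -0.98, edgeR adjusted p = 0.00603). The call was lost without Empty A, Empty C, NF-YAs B or NF-YAs C, each time at a log2FC of -1.77 or lower, with edgeR adjusted p from 0.0185 to 0.0318. In NF-YAl the log2FC was -0.28 (SE 0.44, edgeR adjusted p = 0.679), and the direct difference was 1.75 (SE 0.48, edgeR adjusted p = 0.0217). ATF3 overlaps RN7SL512P on the opposite strand.

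EGR1, a zinc finger factor that responds to ERK signalling through serum response factor, was the lowest of the members, with 4 to 60 expected counts a library. It was at 1.09, 0.914 and 1.73 CPM in Empty, 3.18, 0.368 and 1.19 with NF-YAl and 0.323, 0.199 and 0.323 with NF-YAs. NF-YAs lay below every other library, although NF-YAl B came close. The log2FC was -2.12 (SE 0.70, edgeR adjusted p = 0.0324) in NF-YAs, where DESeq2 called it (adjusted p = 0.00808), and 0.30 (SE 0.55, edgeR adjusted p = 0.73) in NF-YAl, a sign that turned without NF-YAl A. The direct difference was 2.42 (SE 0.69, edgeR adjusted p = 0.0258).

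IER3, an early response gene induced by growth factors and NF-κB that acts on cell survival, was at 138, 164 and 185 CPM in Empty, 80.0, 84.2 and 157 with NF-YAl and 116, 103 and 106 with NF-YAs. NF-YAs lay below Empty in every library, and NF-YAl D was near the Empty level while its other 2 libraries were the lowest of the 9. The log2FC was -0.60 (SE 0.21, edgeR adjusted p = 0.0499) in NF-YAl and -0.58 (SE 0.21, edgeR adjusted p = 0.0515) in NF-YAs. Without NF-YAl D the former was -0.98 (edgeR adjusted p = 5.2e-05). The lines differed by -0.02, with an interval from -0.48 to 0.45. IER3 overlaps IER3-AS1 and HCG20 on the opposite strand.

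**Figure D2:**
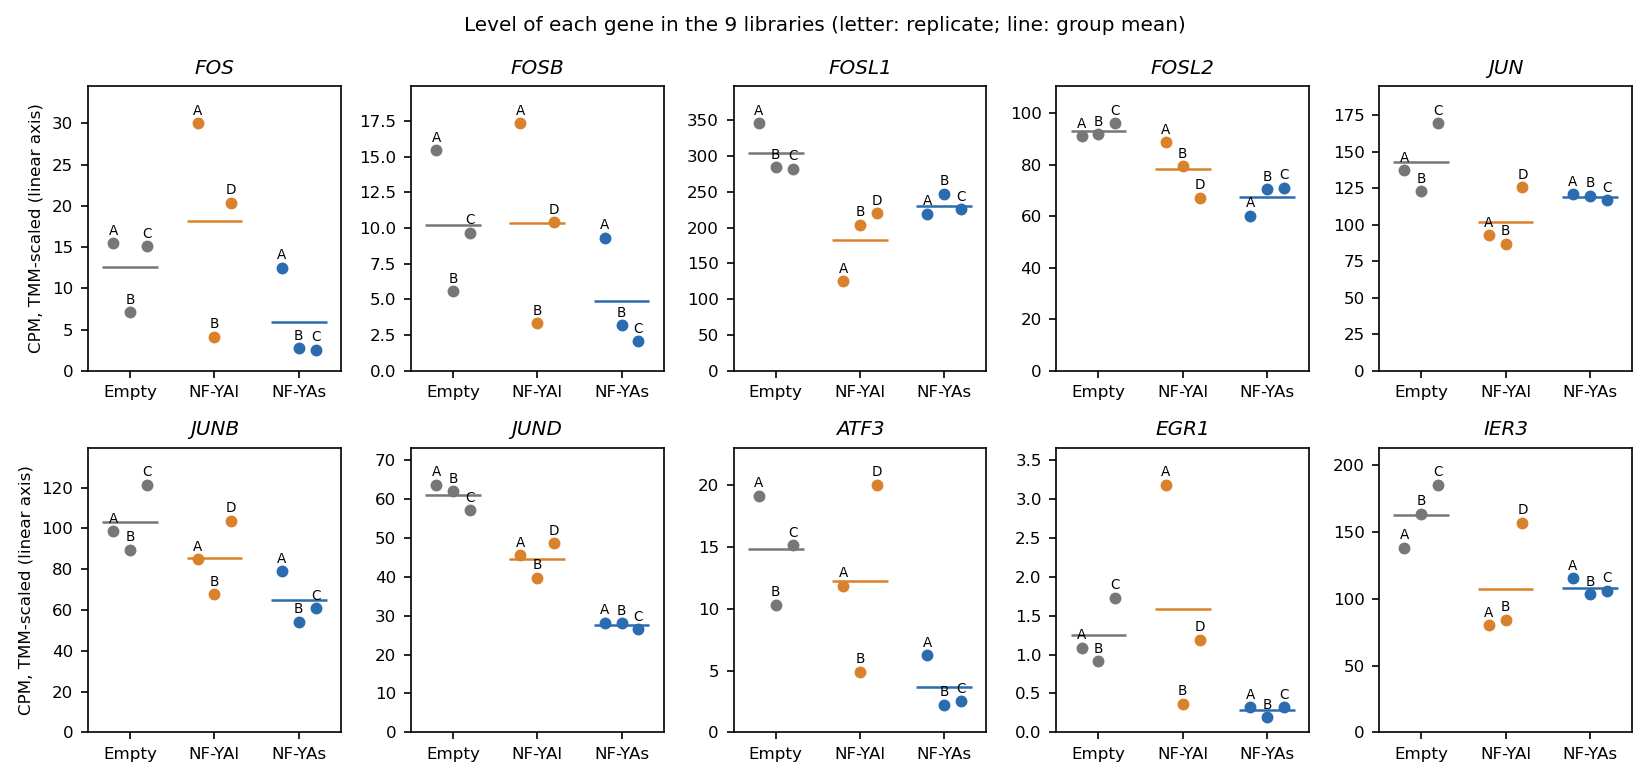
CPM (y axis, linear, TMM-scaled) of each gene in the 3 libraries of each group (x axis), with replicate letters and a line at the group mean. The groups of JUND do not overlap, at 57.1 to 63.7 CPM in Empty, 39.8 to 48.6 in NF-YAl and 26.5 to 28.2 in NF-YAs, whereas FOS spans 4.13 to 30.0 CPM within NF-YAl alone.

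The members fell into a variable and a steady set within lines. FOS, FOSB, ATF3 and EGR1 had biological coefficients of variation (square root of the edgeR dispersion) of 0.55, 0.49, 0.39 and 0.47, against 0.094 to 0.19 for the other 6. In NF-YAl B all 4 were low, with FOS 1.70 below its group mean on the log2 scale (a deviation of -1.70), FOSB at -1.32, ATF3 at -1.09 and EGR1 at -1.44. In NF-YAs A the first 3 were high, at 1.46, 1.22 and 0.91, while EGR1 was at 0.17. The ratio of the highest to the lowest library of FOS was 2.18 in Empty, 7.27 with NF-YAl and 4.84 with NF-YAs. Over all 9 libraries the Pearson r of log2 CPM was 0.97 between FOS and FOSB, 0.88 between FOS and ATF3 and 0.94 between JUNB and ATF3, as a description over libraries that share groups. DUSP1, an immediate early phosphatase, was at 32.7, 17.4 and 54.4 CPM in NF-YAl A, B and D and at 29.5, 10.4 and 12.2 CPM in NF-YAs A, B and C. As with ATF3, D was the highest and B the lowest library of NF-YAl, and A the highest of NF-YAs. What set apart these libraries was not tested.

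**Figure D3:**
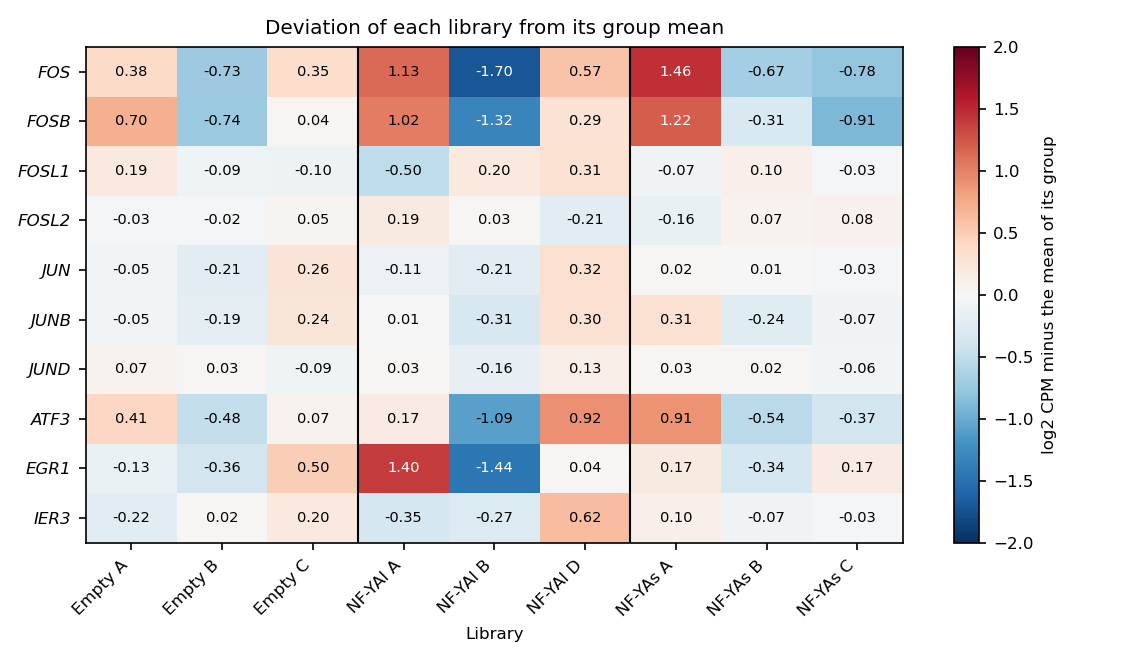
Deviation of log2 CPM of each library (x axis) from the mean of its group for the 10 genes (y axis), in colour and as printed values. FOS runs from -1.70 in NF-YAl B to 1.46 in NF-YAs A, while JUND stays between -0.16 and 0.13.

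By TPM, which allows for length, the members kept nearly 1 order in every library. FOSL1 was first in 8 of 9 libraries, at 99.5 to 294 TPM, and IER3 second, at 82.3 to 284 TPM, the 2 changing places in NF-YAl D. JUNB (40.4 to 123 TPM) and JUN (29.1 to 78.4 TPM) came next, with JUN ahead of JUNB in NF-YAs B and C. JUND (17.1 to 53.0 TPM) stood ahead of FOSL2 (21.6 to 34.6 TPM) in the 6 Empty and NF-YAl libraries and behind it in the 3 NF-YAs libraries. FOS and ATF3 changed places among libraries, FOSB was ninth and EGR1 last in all 9, at 0.67 to 5.95 and 0.080 to 1.33 TPM. Within the FOS family, FOSL1 took 85.2% ± 1.48 of the summed TPM in Empty, 77.3% ± 10.6 with NF-YAl and 87.0% ± 1.72 with NF-YAs (SD, n = 3), and FOS 2.75% ± 0.95, 6.49% ± 5.44 and 1.79% ± 1.74. Within the JUN family, JUND took 24.2% ± 3.72, 23.0% ± 1.91 and 16.7% ± 1.34, and JUN 32.0% ± 1.74, 29.7% ± 1.62 and 41.2% ± 3.24. The share of JUN was thus higher in every NF-YAs library than in any other, and that of JUND lower. The TPM ratio of JUN to JUND was 1.13 to 1.70 in Empty, 1.17 to 1.48 in NF-YAl and 2.44 to 2.52 in NF-YAs, and that of FOSL1 to JUND was 5.26 to 6.23, 3.19 to 5.90 and 8.96 to 10.2. An exact permutation test of 3 against 3 libraries cannot go below p = 0.1, so no test of these shares was made.

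**Figure D4:**
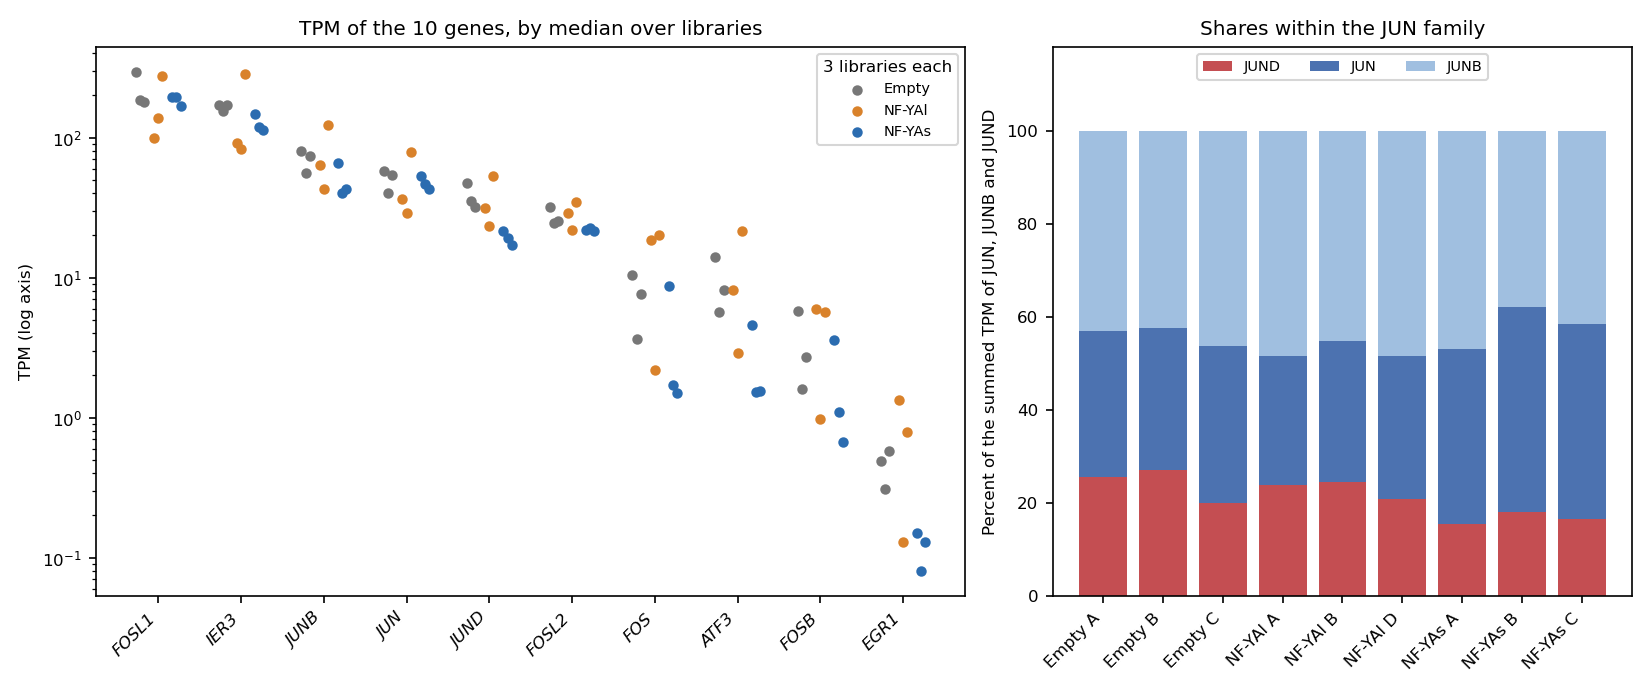
Left, TPM (y axis, log) of the 10 genes in order of their median, 1 point a library; right, percent of the summed TPM of JUN, JUNB and JUND in each library, from 0. FOSL1 and IER3 lead, EGR1 is last, and JUND takes 15.4 to 18.1% of its family in NF-YAs against 19.9 to 27.0% in Empty.

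At the transcript level, 1 of the 6 listed transcripts of FOSL1 took 75.2 to 83.4% of its TPM in every library. FOSB was counted mostly on the longer of its 2 transcripts, 83.4 to 100% of TPM. The 2 transcripts of JUND were given 50% each in every library, as happens where reads do not tell them apart, so the fall of JUND cannot be assigned to a transcript. ATF3 was spread over several transcripts with unsteady shares, a single transcript taking 0, 59.48 and 0% of its TPM in NF-YAs A, B and C. Its fall was not assigned to a transcript either.

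The genes whose levels were most like those of each member over the 9 libraries were mostly not of these families. Among 12124 genes, FOSB (r = 0.97) came first for FOS, TBC1D15 (0.99) for FOSB, RFWD3 (0.99) for FOSL1, KCNAB2 (0.98) for FOSL2 and ARSK (0.97) for JUN. RND3 (0.98) came first for JUNB, AP3M1 (0.99) for JUND, IBTK (0.98) for ATF3 and KLHL15 (0.99) for IER3. DUSP1 was among the first 3 for both JUNB (0.97) and ATF3 (0.98). EGR1 was left out for its low level. With 9 libraries in 3 groups and many genes, high values are common, and these are given without a test.

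Of 40 tested other immediate early genes, 3 rose and 11 fell in NF-YAs, with a median log2FC of -0.28. Over all genes, 5.44% were called higher and 3.90% lower in NF-YAs. ZFP36, whose product speeds decay of short-lived mRNA, fell from 22.4 to 3.93 CPM (log2FC -2.52, SE 0.33, edgeR adjusted p = 0.00012). ARC (-1.59), GADD45B (-1.51) and KLF2 (-1.44) fell as well, and ID3 (1.63) and LIF (1.01) rose. In NF-YAl, 2 of the 40 rose and 2 fell, with a median of -0.22, against 4.76% of all genes called higher and 3.50% lower. They were ID3 (1.95) and LIF (1.68), and SGK1 (-1.35), a serum-induced kinase, and GADD45B (-1.09). ZFP36 was higher in NF-YAl than in NF-YAs by 1.52 (SE 0.33, edgeR adjusted p = 0.00701), the only call of the list between the lines.

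Of 29 tested regulators of ERK, JNK and serum response factor, 3 rose in NF-YAs, against 5.44% of all genes, with a median log2FC of 0.10. They were the p38 pathway kinases MAP2K6 (1.22) and MAPK11 (1.24), and MAP3K1 (1.36). At any fold, 5 passed the p higher and 3 lower in NF-YAs. In NF-YAl, 5 passed the p higher and 1 lower, each at a smaller fold. Over all genes, 10.5% passed it lower in NF-YAs and 9.54% in NF-YAl, and the shares passing it higher were not computed. Of 17 tested MAPK feedback inhibitors, 1 rose and 2 fell in NF-YAs, against 5.44% of all genes higher and 3.90% lower. In NF-YAl, 1 fell, against 3.50% of all genes. The median log2FC of the list was -0.02 in NF-YAs and 0.23 in NF-YAl. At any fold, as many passed the p higher as lower, 4 each way in NF-YAs and 3 each way in NF-YAl. DUSP5 fell with both isoforms. Its mean was 349 CPM in Empty, 157 CPM with NF-YAl (-1.15) and 146 CPM with NF-YAs (-1.26). DUSP1 fell in NF-YAs (-1.60, SE 0.40, edgeR adjusted p = 0.00878), and SPRY3 rose there from 0.0402 to 0.643 CPM. SPRY3, the 1 inhibitor that rose, had 1, 0 and 2 counts in Empty A, B and C. It passed the filter on low counts only through the transduced lines. Of 18 tested bZIP partners, 1 rose and 2 fell in NF-YAs, against 5.44% of all genes higher and 3.90% lower. BATF3 (2.32) rose from 0.351 to 1.77 CPM. MAFA (-1.81) fell from 3.29 to 0.931 CPM and NFIL3 (-1.47) from 21.4 to 7.75 CPM. BATF3 had only 10, 7 and 9 counts in Empty A, B and C, and passed the filter through the transduced lines alone. MAFA had 11, 22 and 24 counts in NF-YAs A, B and C. In NF-YAl, 3 of these 18 partners passed the p lower at a smaller fold, against 9.54% of all genes lower at any fold.

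Of 21 tested genes known as AP-1 targets, 1 rose and 4 fell in NF-YAs with a median log2FC of -0.11, and 1 rose and 3 fell in NF-YAl with a median of -0.26. The shares over all genes were 5.44% higher and 3.90% lower in the former and 4.76% and 3.50% in the latter. Of the matrix metalloproteinases, MMP1 (-1.26), MMP10 (-1.19) and MMP13 (-1.21) fell in NF-YAs, while MMP9 rose from 0.674 to 5.52 CPM (3.03, SE 0.24, edgeR adjusted p = 3.25e-06). The remaining call lower in NF-YAs was MMP3, with only 1, 2 and 4 counts in NF-YAs A, B and C. MMP3 passed the filter on low counts only through the other groups. MMP13 (-1.75), MT2A (-1.76), a metallothionein, and PTHLH (-1.08) fell in NF-YAl, and MMP9 rose there to 1.91 CPM. Between the lines, MMP10 (1.25) was higher in NF-YAl, and MMP9 (-1.53) and MT2A (-1.25) were lower.

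Of 12 heat shock genes, a list of handling and proteotoxic stress, the inducible HSPA1A (-1.27), HSPA1B (-1.39) and HSPA6 (-1.68) fell in NF-YAs and BAG3 (1.08) rose. The median was -0.16 for the list, and over all genes 3.90% were called lower and 5.44% higher in NF-YAs. HSPA1A and HSPA1B are near-identical copies, so their reads can be shared between them. HSPA6 was higher in NF-YAl than in NF-YAs by 1.17 (SE 0.18, edgeR adjusted p = 0.000976). In NF-YAl against Empty, 1 gene, HSPA1B (-0.54), passed the p at a smaller fold, against 9.54% of all genes lower at any fold. These genes moved in NF-YAs beside ATF3 and JUND, and their part in that difference was not tested.

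**Figure D5:**
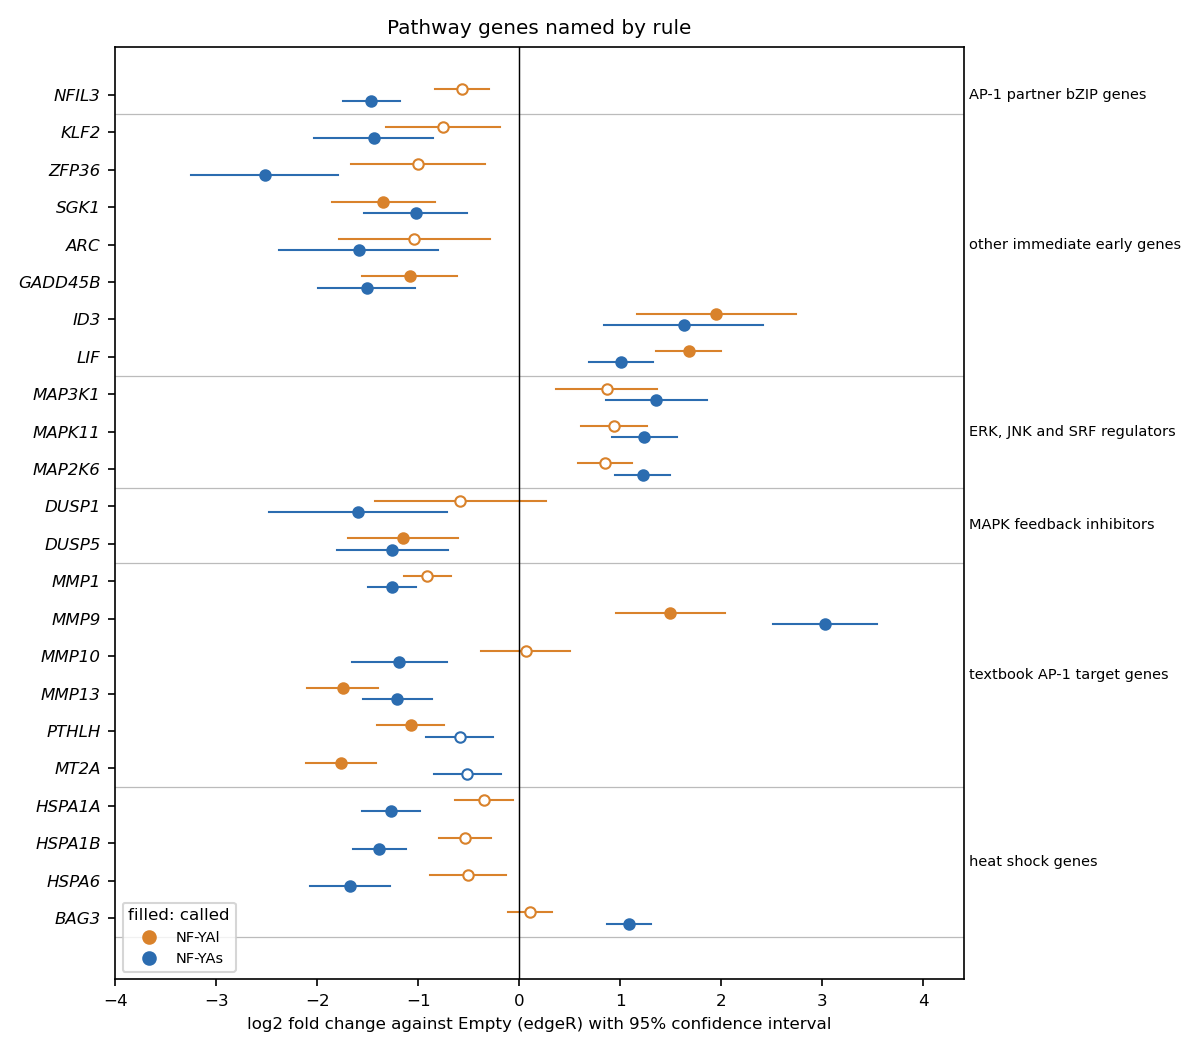
Log2 fold change against Empty (x axis, edgeR) with 95% confidence intervals for the pathway genes named by rule, grouped by list, in NF-YAl (orange) and NF-YAs (blue), filled where called. ZFP36 is lowest in NF-YAs at -2.52 and MMP9 highest at 3.03.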

How the data were processed

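RNA-seq libraries of PC-3 MTSs (Empty, NF-YAl and NF-YAs, 3 each) had been prepared by the authors with a stranded total RNA kit and aligned to the human transcriptome (GRCh37, hg19) with Bowtie2 within RSEM 1.3.1. The strand setting is not given in the sources used here, so genes that overlap on opposite strands may carry reads of both. The authors deposited, per library, expected counts of genes and transcripts (RSEM estimates, not normalized), TPM corrected for effective length, and the percent of a gene's TPM that each transcript takes. Groups and replicate letters were taken from the labels. The labels do not say whether replicates were separate cultures, but the study's methods give 3 independent experiments.

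Gene expected counts were rounded and tested over all 17108 genes that passed filterByExpr with edgeR 4.0.16 in R 4.3.3 (TMM, 1 quasi-likelihood fit of 9 libraries, Benjamini-Hochberg adjustment over all tested genes, two-sided). Calls required an adjusted p below 0.01 with a log2 fold change beyond 1 in either direction. SEs are |log2FC| over the square root of F, and CPM are TMM-scaled. Depth was 18076979 to 27163976 expected counts. Alternatives were DESeq2 1.42.0, RLE scaling, 2 other count filters, fits of 2 groups, the replicate letter as a block, an effective length offset, other thresholds, limma 3.58.1 on log2(TPM + 1) and log2(TPM + 0.1), and leaving out each library. The procedure was tested on simulated data. The fold changes of limma are on the log2(TPM + pseudocount) scale, which understates changes of low genes.

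The 10 members, the pathway and marker lists and the tests were chosen with earlier results of these data known. From each list, up to 4 called genes per comparison and direction were named, largest |log2FC| first, where the higher group averaged 5 CPM or more and libraries of both groups did not overlap, except that some named genes are not reported here. BATF3, MAFA, MMP3 and SPRY3, outside this rule, were named after their values were seen, as was DUSP1 in single libraries. The first of the 3 genes most like each member were named by Pearson r of log2 CPM (prior count 2) over genes of at least 5 CPM. Gene positions are from GENCODE on GRCh37, and promoters from RefSeq. No pair of replicates looked like a library deposited again: the chi-square of their counts was 6.08 per gene or higher. Figures were drawn with matplotlib 3.10.9.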

Additional observations from a re-analysis of the deposited data

Results flagged for a closer look

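The direct comparison of the lines tests whether their effects against Empty differ. By edgeR's quasi-likelihood test at an adjusted p under 0.01, JUND was the 1 member that differed in this way. The 5 pathway genes given with it also passed the fold threshold in this comparison and the rule for named genes. JUND was higher in NF-YAl than in NF-YAs by 0.69 on the log2 scale (adjusted p = 0.000591), and so were ZFP36 by 1.52 (adjusted p = 0.00701), MMP10 by 1.25 (adjusted p = 0.00178) and HSPA6 by 1.17 (adjusted p = 0.000976). MMP9 was lower in NF-YAl, with a log2 difference of -1.53 (adjusted p = 0.000485), as was MT2A at -1.25 (adjusted p = 0.000231). All 3 NF-YAl libraries lay on 1 side of all 3 NF-YAs libraries for each of these 6 genes. Total NFYA was also higher in NF-YAl than in NF-YAs, by 0.39 on the log2 scale, and its part in these differences was not tested. For the results flagged here, groups of 3 libraries were not searched for single libraries that stand apart.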

How the results depend on the processing

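For the log2 fold changes of the members, 292 values under settings other than leaving out a library kept their direction and side of the threshold, 16 passed the threshold anew, 4 lost it and 8 changed sign. With a library left out, 252 were as with all libraries, 4 passed anew, 4 lost it and 10 changed sign. No change of sign concerned a value called with all libraries, and the causes were not tested.

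In NF-YAs against Empty, the 2 members called lower became 5 with the replicate letter as a block (FOS, FOSB, JUND, ATF3 and EGR1) and 0 with limma on log2(TPM + 1) or log2(TPM + 0.1). With a library left out, 1 to 3 were called, 1 without Empty A, Empty C, NF-YAs B or NF-YAs C (JUND) and 3 without NF-YAl A or NF-YAl B (EGR1 added). In NF-YAl against Empty, 0 called lower became 2 at any fold (FOSL1 and JUND). Between the lines, 0 called higher in NF-YAl became 1 with DESeq2 (EGR1), 1 with no filter (ATF3), 1 at any fold (JUND), 2 with the block and 2 at an adjusted p under 0.05 (both ATF3 and EGR1), and 0 to 2 with a library left out, 2 without NF-YAl B. Counts of members that do not overlap were recomputed by a choice made after seeing the data. Without NF-YAl B or without NF-YAs A, 6 members were higher in every NF-YAl library than in NF-YAs, against 2 with all libraries. Leaving out a library cannot lower such a count, and the share of all genes in these settings was not computed. No label ties the replicate letters to shared experiments. Same-letter correlations of deviations from the group means were 0.077, -0.013 and 0.098 for Empty with NF-YAs, the groups that share 3 letters, 0.123 and 0.253 for Empty with NF-YAl, and -0.065 and 0.13 between the lines. Their mean was 0.0861, against -0.0299 for other letters, and since not every pair was over 0.1, the letters were not taken to pair the samples.

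Log2 fold changes that changed sign in NF-YAl against Empty were, with the replicate block, FOS (-0.0569) and FOSB (-0.40). With limma on TPM they were FOSL2 (0.047 with a pseudocount of 1, 0.0481 with 0.1) and JUNB (0.0181 and 0.0169). With a library left out they were FOSB without Empty B (-0.29), Empty C (-0.03), NF-YAl A (-0.57) or NF-YAl D (-0.0038), FOS without NF-YAl A (-0.0362), EGR1 without NF-YAl A (-0.67) and ATF3 without NF-YAl B (0.11). Over the libraries left out, FOS ranged from -0.0362 to 1.0006, FOSB from -0.57 to 0.44, ATF3 from -0.84 to 0.11 and EGR1 from -0.67 to 0.79. Between the lines, IER3 turned with limma on TPM (0.0369 and 0.0358) and without NF-YAl A (0.16), NF-YAl B (0.13) or NF-YAs A (0.03).

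Depth limits EGR1 most, with 4 to 60 expected counts a library, and EGR1 had no value under the filter of 10 counts in every library or in limma on TPM.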
